A study of Mus musculus with 2 samples.

Results

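Heat shock proteins and DnaJ proteins are molecular chaperones, and their transcripts were compared between epidermis in which SOX11, a DNA-binding protein of the SOXC group, had been induced and control epidermis. The 73 genes were chosen by a rule on names, set with earlier results of these data known. They start with Hsp followed by a, b, d, e, h or a digit, or with Dnaja, Dnajb or Dnajc followed by a digit. They are 73 of 34821 names on the array and 110 of 55681 probes, and 27 of them have more than 1 probe, in which case the brightest probe over both channels and arrays stands for the gene. The induced pups were FVB/N mice at postnatal day 4.5 with the genotype K14-rtTA;TRE-Sox11-FLAG. Their K14-rtTA transgene makes a doxycycline-dependent activator from the keratin 14 promoter, which is active in basal keratinocytes, and TRE-Sox11-FLAG is switched on by that activator. The control pups were FVB/N littermates of the same age with K14-rtTA alone, and both kinds of pup received doxycycline (Dox) for 12 h, so that the activator and the drug are shared by both groups. Epidermal sheets were separated from the dermis with dispase and hold suprabasal as well as basal cells, whereas the promoter drives the activator in basal cells. There were 2 littermate pairs, each hybridised to a 2-colour array with the control RNA in Cy3 and the SOX11-induced RNA in Cy5. No dye swap is shown by the labels, so an effect of the dye and an effect of the genotype on a single probe cannot be told apart.

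Chaperones bind unfolded parts of other proteins and help them to fold, to reach their compartment or to be degraded. HSP70 proteins do this in cycles of ATP hydrolysis, which DnaJ proteins (also called HSP40) start by delivering a substrate, and HSP110 and BAG proteins end by exchanging the nucleotide. HSP90 proteins act later on kinases and hormone receptors, small heat shock proteins hold unfolded proteins without ATP, and the chaperonin HSPD1 with its lid HSPE1 folds proteins inside mitochondria. Many cytosolic members are induced through heat shock factor 1 (HSF1), which binds inverted repeats of GAA called heat shock elements, and several members of the endoplasmic reticulum (ER) are induced in the unfolded protein response through ER stress response elements. In the epidermis HSPB1 is an abundant protein of differentiating keratinocytes.

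The control channel had signal well above background on 37.49% and 38.7% of spots, and the SOX11 channel on 40.65% and 42.64%. On each of the arrays, 58 of the 73 chaperone genes gave such a signal in the control or the SOX11 channel, and 56 gave it in both channels. No member was saturated. Basal and suprabasal keratinocyte markers were above background for 7 of 7 and 7 of 7 genes, as fits the tissue named in the labels. Neither of the 2 Sox11 probes on the array was above background in any channel, and their adjusted p were 0.462 and 0.717. Where these probes lie relative to the transgene is not given in the sources used here, so they do not check the labels. Log2 ratios below are SOX11-induced over control, pair 1 is the first array and pair 2 the second, and levels are log2 spot brightness after normalization, which can be compared between samples for 1 probe but not between probes.

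Of the 73 chaperone genes, 3 rose in SOX11-induced epidermis and none fell at an adjusted p under 0.05 (limma, two-sided, Benjamini-Hochberg over all 55676 probes tested). The genes that rose were Dnaja1, Dnajb9 and Hsp90aa1, with mean log2 ratios of 1.12, 0.86 and 0.72. These make 4.11% of the members, while 3.52% of all genes tested rose. Among genes above background the shares were 5.17% of 58 members and 6.93% of 16341 genes. The share of all genes that fell was 1.78%, or 3.52% of those above background. No member passed a log2 ratio of 1.5, which 0.615% of all genes and 1.31% of those above background did together with the adjusted p. The count of rising members is thus close to the background, and the results concern which members moved rather than how many.

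At an unadjusted p under 0.05, 17 members differed, 11 of them higher and 6 lower, which is 23.3% of the members against 22.6% of all genes. Above background it was 24.1% of the members against 31.8% of the genes. Without regard to any test, 24 members were higher in both pairs (32.9% against 33.2% of all genes) and 29 were lower in both pairs (39.7% against 33.4%). The remaining 20 changed sign between the pairs. Above background 34.5% of members were higher in both pairs and 37.9% lower, against 40.2% and 34.2% of the genes. The median log2 ratio of the members was 0.03, with medians of -0.06 in pair 1 and -0.01 in pair 2, and that of all genes was -0.0001. For members above background it was 0.04, and for all genes above background it was 0.03. The plot of all members by family shows these small shifts and the few members that stand away from 0.

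**Figure D1:**
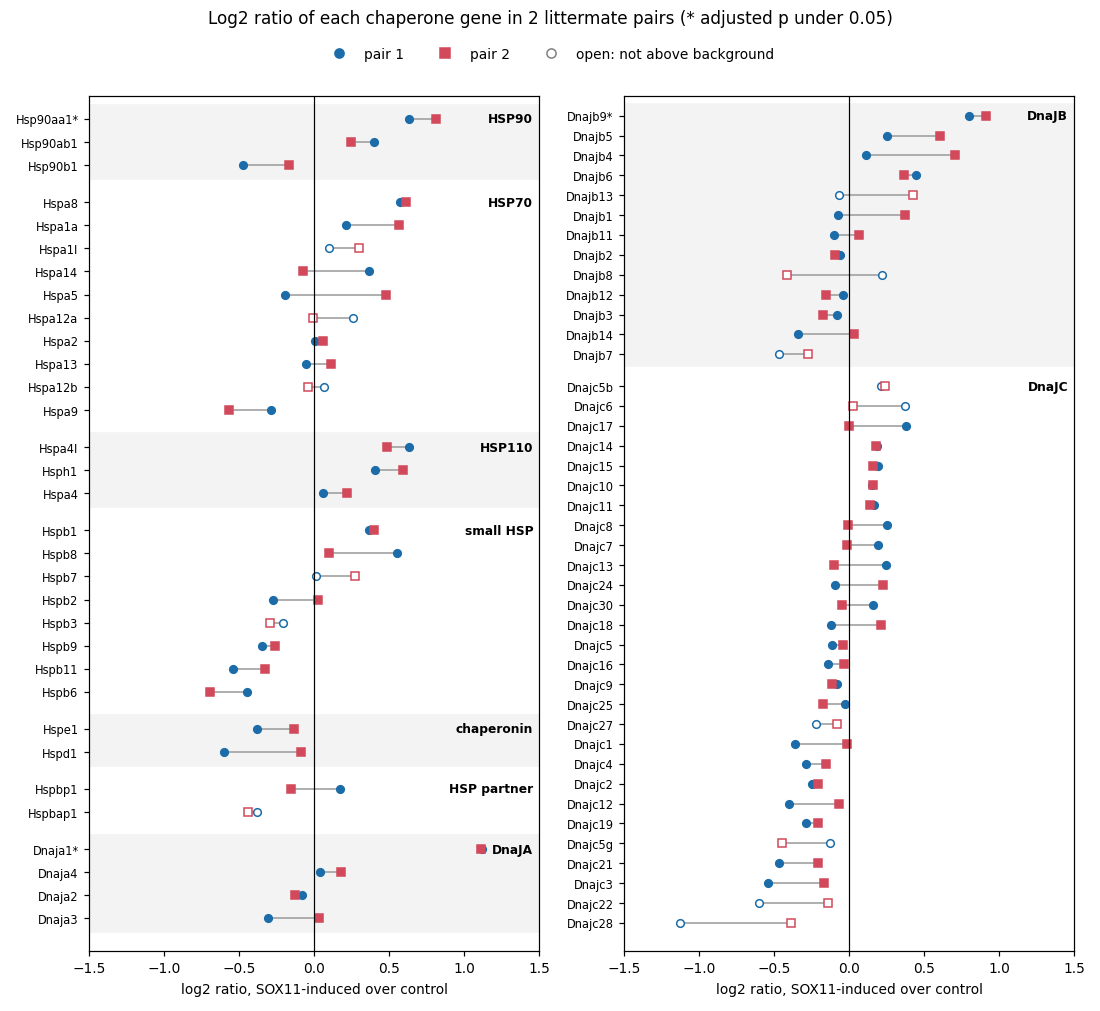
Log2 ratio (SOX11-induced over control, x axis) of each of the 73 chaperone genes, by family, in pair 1 (blue circles) and pair 2 (red squares), with a line joining the pairs and open symbols for genes not above background. Dnaja1, Dnajb9 and Hsp90aa1, which carry an asterisk, passed an adjusted p under 0.05, and Dnajc28, which was not above background, has the lowest mean.

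Dnaja1 encodes a cytosolic DnaJ protein that delivers substrates to HSC70, the product of Hspa8. Its level was 11.83 and 11.86 in the control samples of pairs 1 and 2, and 12.95 and 12.97 in the SOX11-induced samples. Both SOX11-induced samples were thus above both controls, by a similar step. The mean log2 ratio was 1.12 ± 0.00395 (SD, n = 2 pairs), a 2.17-fold higher level, with an adjusted p of 0.00372 (limma). The probe lies at chr4:40679954-40680014 on mm9. A second Dnaja1 probe at chr4:40681938-40681997, which was not above background, had a mean log2 ratio of 0.26 and an adjusted p of 0.359. The array files give a position but no exon or UTR for a probe.

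Hsp90aa1 encodes the heat-inducible cytosolic HSP90. Its level was 10.93 and 10.89 in the controls, and 11.56 and 11.70 in the SOX11-induced samples, so the groups did not overlap. The mean log2 ratio was 0.72 ± 0.126 (SD, n = 2 pairs), 1.65-fold, with an adjusted p of 0.0313 (limma, probe at chr12:111929248-111929307 on mm9). Hsp90ab1, the constitutive cytosolic HSP90, went from 15.15 and 15.06 in the controls to 15.55 and 15.31 in the SOX11-induced samples, log2 ratios of 0.40 and 0.24 (adjusted p = 0.262, limma). Both cytosolic HSP90 genes were higher in both pairs, and the difference passed the test for the inducible one. Whether their log2 ratios differ from each other was not tested.

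Hspa8 encodes HSC70, the constitutive cytosolic HSP70. Its brightest probe measured 14.36 and 14.11 in the controls, and 14.93 and 14.72 in the SOX11-induced samples, log2 ratios of 0.57 and 0.61 with an adjusted p of 0.0599. The 2 other Hspa8 probes gave mean log2 ratios of 0.71 (adjusted p = 0.0396, limma) and 0.49 (adjusted p = 0.110). All 3 probes were above background and higher in SOX11-induced epidermis, and the side of the threshold depends on the probe. Hspa1a, a heat-inducible HSP70, measured 11.61 and 11.96 in the controls, and 11.82 and 12.52 in the SOX11-induced samples (log2 ratios of 0.21 and 0.57, adjusted p = 0.206). Its groups overlapped, since the SOX11-induced sample of pair 1 lay below the control of pair 2. Hspa1b, a near-identical copy of Hspa1a, has no probe under its own name, and the Hspa1a probe may read both genes.

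**Figure D2:**
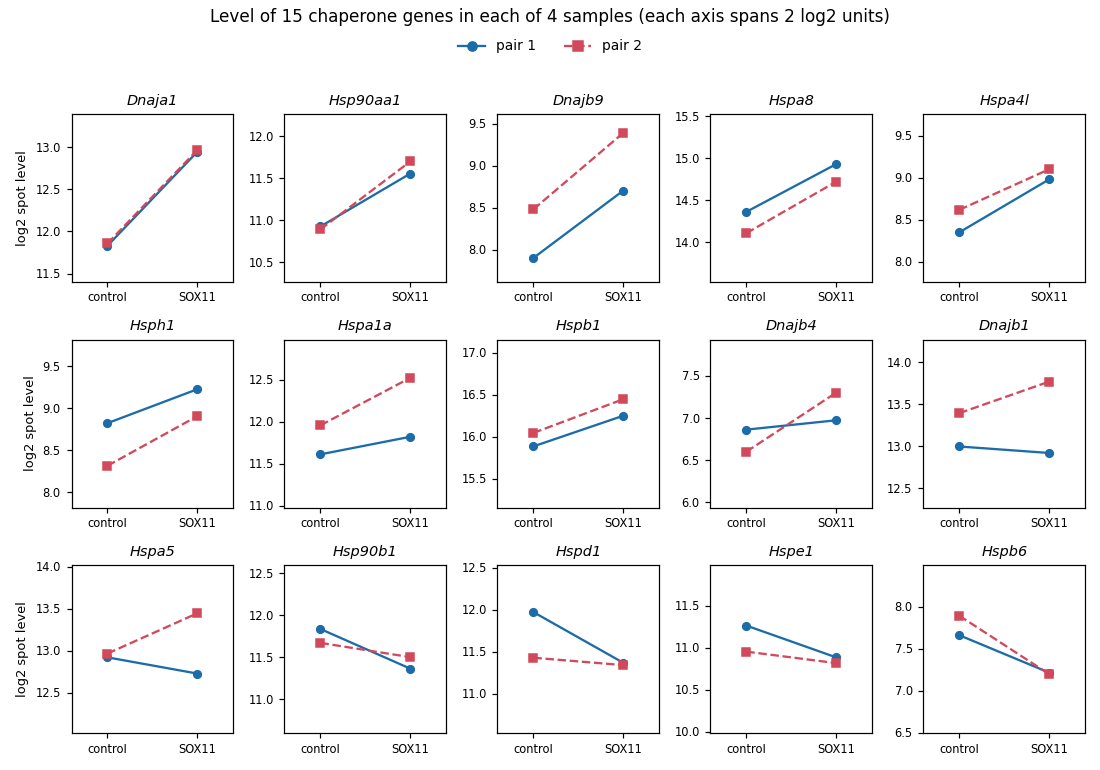
Level (log2 spot brightness, y axis, each panel spanning 2 log2 units) of 15 chaperone genes in the control and the SOX11-induced sample of pair 1 (blue circles, solid lines) and pair 2 (red squares, dashed lines). Lines rise by a similar step in both pairs for Dnaja1, Hspa8 and Hspb1, and run in opposite directions for Dnajb1 and Hspa5.

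HSP110 proteins are relatives of HSP70 that act as its nucleotide exchange factors. All 3 genes were higher in both pairs, as were 40.2% of all genes above background, and none passed the test. Hspa4l measured 8.35 and 8.62 in the controls, and 8.98 and 9.10 in the SOX11-induced samples (log2 ratios of 0.63 and 0.48, adjusted p = 0.0739). Hsph1, the heat-inducible HSP110, measured 8.82 and 8.32 in the controls, and 9.23 and 8.91 in the SOX11-induced samples (0.40 and 0.59, adjusted p = 0.103). Both Hspa4l and Hsph1 were higher in each SOX11-induced sample than in either control. For Hsph1 the SOX11-induced sample of pair 2 and the control of pair 1 lay close together. The mean of Hspa4 was 0.14 (adjusted p = 0.647), and its 2 other probes gave -0.0043 and -0.18. Over the family the median was 0.50.

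A list of 13 genes was set up for induction by heat through HSF1, of which 12 were measured under their own names and all 12 were above background. The measured genes were Dnaja1, Dnajb1, Dnajb4, Hsp90aa1, Hsp90ab1, Hspa1a, Hspa8, Hspb1, Hspb8, Hspd1, Hspe1 and Hsph1. Hspa8 and Hsp90ab1, called constitutive above, are thus included, with means of 0.59 and 0.32. Of the 12 measured genes, 2 rose (Dnaja1 and Hsp90aa1), none fell, 9 were higher in both pairs and 2 were lower in both pairs. Of all genes above background 6.93% rose, 40.2% were higher in both pairs and 34.2% were lower in both pairs. The list's median log2 ratio was 0.39, with 0.38 in pair 1 and 0.48 in pair 2, beside 0.03 for all genes above background. The 2 that were lower in both pairs were Hspd1 and Hspe1, the mitochondrial chaperonin genes of the list, whose means turn to 0.31 and 0.38 where each array is centred on its median instead of by loess (median centring). That setting moves the median of all genes above background from 0.03 to 0.52, and that of the list to 1.06. The shift differed between genes: the bright Hspb1 (mean level 16.15) went from 0.38 to 1.22, and the dim Hspb9 (5.82) from -0.30 to -0.18. The 0.52 is thus a rough reference for values with median centring. Against it the chaperonin genes had a median of -0.18, and by loess they had -0.33 against the 0.03. The list was chosen with earlier results of these data known. It describes where its genes lay in these samples and carries no test of its own.

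The promoters show the letters by which HSF1 target genes are usually recognised. RefSeq (GRCm38.p6) promoter entries, which run from 250 bases before to 50 bases after a gene's start, were given for 59 of the 73 members. A long heat shock element was searched as GAANNTTCNNGAA or TTCNNGAANNTTC and a short one as GAANNTTC or TTCNNGAA, on both strands, and the short one is contained in the long one. The short element was found in 8 of the 9 heat-inducible genes with an entry, Dnajb1 being the exception, in 15 of the 59 members, and in 17.0% of all 27025 genes with an entry. Hsp90aa1, Hsp90ab1 and Hspa8 had no entry, so Dnaja1 was the only gene of the heat-inducible list that rose and could be searched. Its element lies in the entry that begins at chr4:40722218, and not in those that begin at 40722672 and 40722680. The long element was found in 4 members (Dnajb6, Hspd1, Hspe1 and Hsph1) and in 0.662% of all genes. The stretches below are shown because they set Dnaja1, which rose, beside members with an element that did not pass the test. They are printed 5′ to 3′ on the strand of the gene, with the element in capitals.
Dnaja1, plus strand, chr4:40722288-40722407: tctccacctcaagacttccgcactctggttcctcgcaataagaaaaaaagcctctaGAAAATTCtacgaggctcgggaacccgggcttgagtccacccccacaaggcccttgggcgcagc
Hspa1a, minus strand, chr17:34972227-34972286: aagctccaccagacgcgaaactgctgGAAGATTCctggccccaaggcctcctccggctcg
Hspb1, plus strand, chr5:135887786-135887845: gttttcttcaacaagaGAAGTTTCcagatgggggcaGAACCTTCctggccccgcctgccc
Dnajb6, plus strand, chr5:29735828-29735887: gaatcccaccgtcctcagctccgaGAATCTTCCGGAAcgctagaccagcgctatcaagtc
Hspe1, plus strand, chr1:55088038-55088097: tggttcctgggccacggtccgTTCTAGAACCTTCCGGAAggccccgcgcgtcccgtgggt

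Dnaja1 and Hspa1a carry 1 short element in these stretches, Hspb1 carries 2 separate ones, and Hspe1 carries a run of overlapping units. The Hspe1 stretch is also part of the Hspd1 promoter, read from the opposite strand, since these genes start next to each other and run apart. The long element thus stands in members that were higher in both pairs (Hsph1 and Dnajb6) and in members that were lower in both pairs by loess (Hspd1 and Hspe1, with positive means under median centring, where all genes shift), while Dnaja1 holds the short one alone. A SOX-type motif, searched as ACAAAG on both strands, was found in 9 of the 59 members and in 21.0% of all genes, and in none of the 9 heat-inducible genes with an entry. A match of letters is a description of the sequence, and its absence from this window says nothing of the rest of the gene.

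The 2 remaining heat-inducible DnaJ genes differed more between pairs. Dnajb1, the main inducible HSP40, measured 13.00 and 13.39 in the controls, and 12.92 and 13.77 in the SOX11-induced samples, so that its log2 ratio was -0.08 in pair 1 and 0.38 in pair 2 (adjusted p = 0.654). Dnajb4 measured 6.86 and 6.60 in the controls, and 6.97 and 7.30 in the SOX11-induced samples (0.11 and 0.70, adjusted p = 0.230). The groups overlapped for Dnajb1. For Dnajb4 both SOX11-induced samples were above both controls, by a small step in pair 1. Dnajb6, which suppresses aggregation of other proteins, measured 11.01 and 11.13 in the controls, and 11.45 and 11.49 in the SOX11-induced samples (0.45 and 0.37, adjusted p = 0.164). Its 3 other probes, all above background, had positive means of 0.19, 0.28 and 0.58. Dnajb5, a cytosolic DnaJ protein, had log2 ratios of 0.25 and 0.60 (adjusted p = 0.170).

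Dnajb9 encodes ERdj4, a DnaJ protein of the ER that takes part in the removal of misfolded proteins. Its level was 7.90 and 8.48 in the controls, and 8.70 and 9.39 in the SOX11-induced samples. Each SOX11-induced sample was above both controls, and the levels of pair 2 were above those of pair 1. The mean log2 ratio was 0.86 ± 0.0759 (SD, n = 2 pairs), 1.81-fold, with an adjusted p of 0.0145 (limma, probe at chr12:45307313-45307372 on mm9). The second Dnajb9 probe, at chr12:45308272-45308331 and also above background, had a mean log2 ratio of 0.22 and an adjusted p of 0.447. Both probes were positive in their means and they disagree in size, so the rise of Dnajb9 rests on 1 of its 2 probes.

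Of the 9 ER members, all above background, 1 rose, none fell, 2 were higher in both pairs and 4 were lower in both pairs. Of all genes above background 6.93% rose, 3.52% fell, 40.2% were higher in both pairs and 34.2% were lower. The median log2 ratio of the ER members was -0.02 (0.46 with median centring). Dnajb9 was the ER member that rose. Hspa5, which encodes BiP, the HSP70 of the ER and the standard reporter of the unfolded protein response, measured 12.92 and 12.97 in the controls, and 12.73 and 13.45 in the SOX11-induced samples. Its log2 ratios of -0.19 and 0.48 had opposite signs (adjusted p = 0.704), the widest gap between pairs of any member above background. Hsp90b1, the HSP90 of the ER, measured 11.84 and 11.67 in the controls, and 11.36 and 11.50 in the SOX11-induced samples (-0.47 and -0.17, adjusted p = 0.280, and a mean of 0.34 with median centring). Dnajc3, an ER DnaJ protein that restrains the kinase PERK, had log2 ratios of -0.54 and -0.17 (adjusted p = 0.247, and a mean of 0.11 with median centring). Hspa5, Hsp90b1 and Dnajc3 thus had negative log2 ratios in pair 1 by loess, where Dnajb9 had 0.80. The differences between these genes were not tested.

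The next promoters are shown because these 3 ER genes and Dnajb9 differ in the letters of the ER stress response element, searched as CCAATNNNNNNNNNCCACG on both strands. It was found in Hspa5, Hsp90b1 and Dnajc3, which are 3 of the 8 ER members with an entry and 3 of all 59, and in 0.137% of all genes. Dnajb9 holds the shorter CCACG, which 33 of the 59 members and 35.5% of all genes hold. Capitals mark the ER stress response element, or CCACG in Dnajb9.
Dnajb9, minus strand, chr12:44210069-44210188: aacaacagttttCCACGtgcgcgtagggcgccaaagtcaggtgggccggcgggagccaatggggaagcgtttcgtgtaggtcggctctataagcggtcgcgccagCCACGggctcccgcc
Hspa5, plus strand, chr2:34772004-34772063: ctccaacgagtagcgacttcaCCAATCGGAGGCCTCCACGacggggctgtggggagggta
Hsp90b1, minus strand, chr10:86705525-86705664: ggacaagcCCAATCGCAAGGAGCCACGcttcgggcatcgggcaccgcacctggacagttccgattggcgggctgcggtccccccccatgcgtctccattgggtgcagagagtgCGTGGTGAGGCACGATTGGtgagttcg
Dnajc3, plus strand, chr14:118937806-118937865: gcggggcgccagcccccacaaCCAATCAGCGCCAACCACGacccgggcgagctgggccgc

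Mitochondrial chaperones did not pass the test. Of 9 mitochondrial members, 8 above background, none rose or fell, 5 were lower in both pairs and 2 were higher in both pairs. Of all genes 33.4% were lower and 33.2% were higher in both pairs. The median log2 ratio of the mitochondrial members was -0.25 (0.38 with median centring, which is 0.14 under the median of genes above background there). Both values include Dnajc28, which was not above background. The median was -0.19 over the 8 above background, and -0.04 where all probes of a gene above background were averaged. Hspa9, the mitochondrial HSP70, measured 10.71 and 10.72 in the controls, and 10.42 and 10.16 in the SOX11-induced samples (-0.29 and -0.57, adjusted p = 0.160, and a mean of 0.20 with median centring). Both SOX11-induced samples were below both controls for this gene. Hspd1, the chaperonin, measured 11.97 and 11.43 in the controls, and 11.37 and 11.34 in the SOX11-induced samples (-0.60 and -0.09, adjusted p = 0.286, and a mean of 0.31 with median centring). Hspe1, its lid, measured 11.26 and 10.95 in the controls, and 10.88 and 10.82 in the SOX11-induced samples (-0.38 and -0.14, adjusted p = 0.375, and 0.38 with median centring). The chaperonin genes moved in the same direction in both pairs, by a larger step in pair 1. Dnajc19, a DnaJ protein of the mitochondrial import motor, had probes of opposite sign, -0.25 (adjusted p = 0.384) and 0.59 (adjusted p = 0.0613), both above background.

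Small heat shock proteins were split. Of 8 genes, 6 above background, none passed the test, 3 were higher in both pairs and 4 were lower in both pairs, with a median log2 ratio of -0.19 (-0.01 with median centring). These medians include Hspb3 and Hspb7, which were not above background, so they are not set against the median of genes above background. Over the 6 above background the median by loess was -0.22, beside 0.03 for all genes above background. Of all genes 33.2% were higher and 33.4% were lower in both pairs. Hspb1 measured 15.89 and 16.05 in the controls, and 16.25 and 16.45 in the SOX11-induced samples (0.37 and 0.40, 1.30-fold, adjusted p = 0.184). Hspb8, which works with BAG3 in the clearance of damaged proteins, measured 10.43 and 11.15 in the controls, and 10.98 and 11.25 in the SOX11-induced samples (0.55 and 0.10, adjusted p = 0.303). The step of Hspb1 was alike in both pairs and that of Hspb8 lay almost wholly in pair 1. Hspb6, a small heat shock protein best known from muscle, measured 7.66 and 7.89 in the controls, and 7.22 and 7.20 in the SOX11-induced samples. Its log2 ratios of -0.45 and -0.70 gave the lowest mean of the members above background, -0.57 (adjusted p = 0.0739, and -0.12 with median centring). Hspb11, a subunit of intraflagellar transport rather than a chaperone, had log2 ratios of -0.54 and -0.33 (adjusted p = 0.146, and a mean of 0.09 with median centring), and its second probe, not above background, had a mean of 0.21. Hspb9 had -0.35 and -0.26 (adjusted p = 0.285), and its SOX11 channel was not above background in pair 2.

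The largest family, DnaJC, holds 28 genes of unlike functions that share the J domain. None passed the test, 6 were higher in both pairs and 15 were lower in both pairs, with a median of -0.08 (0.40 with median centring, and 0.02 over the 22 above background where all their probes above background were averaged). Of the 22 above background, 4 were higher and 11 were lower in both pairs, and their means ran from -0.35 for Dnajc3 to 0.19 for Dnajc17. Of all genes 33.2% were higher and 33.4% were lower in both pairs. Above background these shares were 40.2% and 34.2%. Dnajc21, a factor of ribosome maturation, measured 8.16 and 7.97 in the controls, and 7.69 and 7.76 in the SOX11-induced samples (-0.47 and -0.21, adjusted p = 0.249, and a mean of 0.15 with median centring). Both SOX11-induced samples lay below both controls. The 13 DnaJB genes had a median of -0.02 (0.55 with median centring and 0.12 with median spot signals), with 4 higher and 4 lower in both pairs. Among the 4 DnaJA genes, which are close relatives of the bacterial DnaJ, Dnaja1 stood apart from Dnaja2, Dnaja3 and Dnaja4, whose means were -0.11, -0.14 and 0.11 with adjusted p of 0.732, 0.669 and 0.727. Hspbp1, an exchange factor of HSP70, had a mean of 0.01 (adjusted p = 0.979).

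The 15 members not above background were Dnajb7, Dnajb8, Dnajb13, Dnajc5b, Dnajc5g, Dnajc6, Dnajc22, Dnajc27, Dnajc28, Hspa1l, Hspa12a, Hspa12b, Hspb3, Hspb7 and Hspbap1. Several of these are known from testis, muscle or nerve. Dnajc28 had the lowest mean of all members, -0.76, with levels of 5.46 and 4.99 in the controls, and 4.33 and 4.61 in the SOX11-induced samples (adjusted p = 0.0605), and it is named here after its values were seen. At these levels the log2 ratios of the 15 genes are no measure of change.

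The pairs were compared across the members. Over the 58 members above background Pearson's r between the log2 ratios of the pairs was 0.737 and Spearman's rho was 0.676, beside 0.687 and 0.663 over all 16341 genes above background. These are correlations across genes within 2 arrays, which share the dye orientation, and genes are not independent replicates. The members farthest from the diagonal were Hspa5, Dnajb4, Hspd1 and Hspb8.

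**Figure D3:**
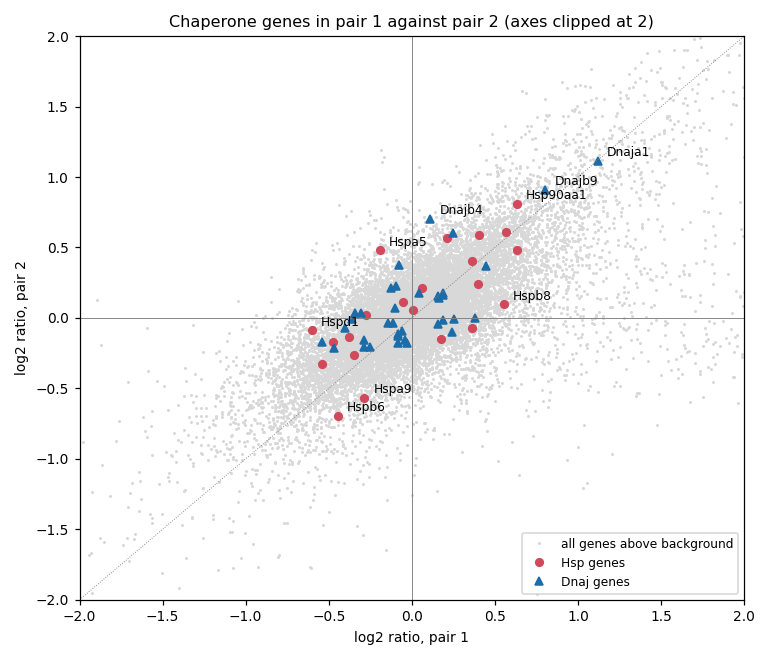
Log2 ratio in pair 1 (x axis) against pair 2 (y axis) for Hsp genes (red circles), Dnaj genes (blue triangles) and all genes above background (grey points), with both axes clipped at 2 and a dotted line where the pairs are equal. Dnaja1 lies on the diagonal at 1.12 and 1.11, and Hspa5 lies in the quadrant of opposite signs at -0.19 and 0.48.

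Genes that work with these chaperones were read from fixed lists of heat shock factors, exchange factors, cochaperones, other chaperones, the cytosolic chaperonin CCT with prefoldin, and the unfolded protein response. Of 71 such genes, 70 were measured and 64 were above background. Of the 70 measured, 1 rose and 1 fell at an adjusted p under 0.05 (3.52% and 1.78% of all genes), and the median log2 ratio was 0.02. In both pairs 31 were higher and 18 were lower (33.2% and 33.4% of all genes are the background). Of the 64 above background, 1 rose, 1 fell, 29 were higher and 17 were lower in both pairs. Over all genes above background these shares were 6.93%, 3.52%, 40.2% and 34.2%. The one that rose was Fkbp4, an HSP90 cochaperone of steroid receptors, which measured 7.93 and 7.64 in the controls, and 8.81 and 8.39 in the SOX11-induced samples (0.87 and 0.75, adjusted p = 0.0185, limma). Herpud1, an ER protein induced in the unfolded protein response, fell by 1.05 and 0.46 on the log2 scale, from 9.91 and 10.05 to 8.85 and 9.59 (adjusted p = 0.0465, limma), a call kept under 3 of 9 other settings.

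Fkbp4, like Hsp90aa1, serves the HSP90 cycle. Of 16 cochaperones 1 rose and none fell, 11 were higher and 4 were lower in both pairs, and the median was 0.14. Of the 15 above background, 10 were higher and 4 were lower in both pairs, against 40.2% and 34.2% of all genes above background. None of the 6 genes of the heat shock factor list passed the test: Hsf1 had log2 ratios of -0.20 and -0.20 (adjusted p = 0.478) and Hsf2 had 0.52 and 0.31 (adjusted p = 0.166). Among 10 exchange factors the median was 0.05, and Bag3, itself a target of HSF1, had a mean of 0.02 (adjusted p = 0.952). The 13 measured genes of CCT and prefoldin had a median of 0.05 and ran from -0.17 to 0.29. The 20 genes of the unfolded protein response had a median of -0.06 (0.46 with median centring), with 4 higher and 6 lower in both pairs, and neither Ddit3 (adjusted p = 0.784) nor Xbp1 (adjusted p = 0.820) passed the test. Cryab, a small heat shock protein whose name the rule does not take, reached 1.19 in pair 1 and 0.07 in pair 2 (adjusted p = 0.168).

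**Figure D4:**
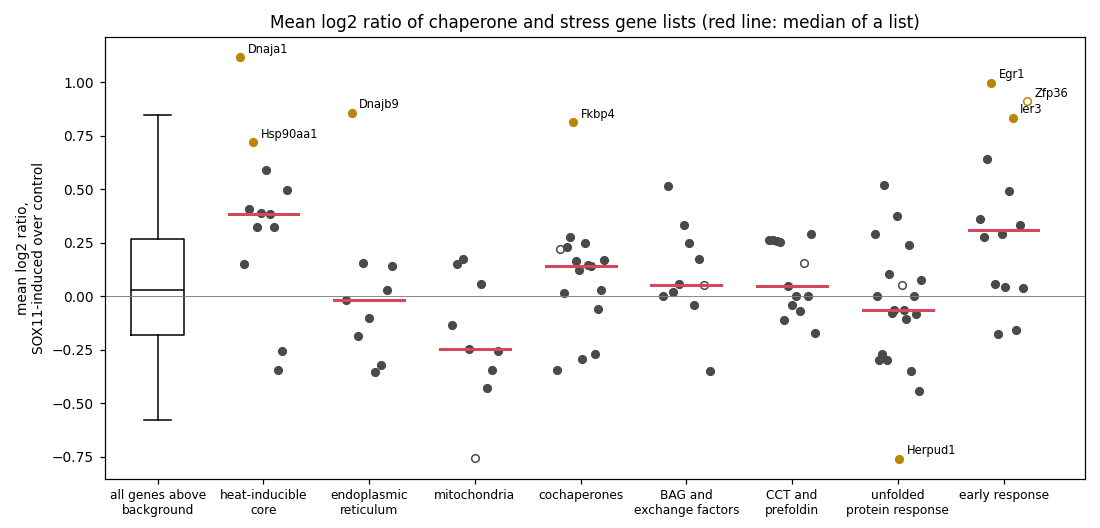
Mean log2 ratio (y axis) of the genes of 8 lists (points) with the median of each list (red line), beside a box plot of all genes above background (box for the quartiles, whiskers for the 5th and 95th percentiles). Gold points passed an adjusted p under 0.05 and open points were not above background, and the heat-inducible core with a median of 0.39 and the early response genes with 0.31 lie above the other lists.

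Other groups of transcripts moved in the same samples. Of 14 early response genes, which are induced within minutes by many stimuli including tissue handling, 3 rose: Egr1 (0.84 and 1.15, adjusted p = 0.00879), Ier3 (1.03 and 0.64, adjusted p = 0.0229) and Zfp36 (0.88 and 0.95, adjusted p = 0.0105), Zfp36 being not above background. Above background 2 of 13 early response genes rose. The share that rose was 3.52% of all genes and 6.93% of those above background. The early response list had a median of 0.31, with 0.17 in pair 1 and 0.56 in pair 2. The summed brightness of the list was 52520 and 56986 in the controls, and 47575 and 69969 in the SOX11-induced samples, so the sum fell in pair 1 and rose in pair 2 and the groups overlapped. Fos, a defining gene of this list, had log2 ratios of -0.03 and 0.61 (adjusted p = 0.402).

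Cell type markers also differed. Of 7 basal keratinocyte markers, Krt15 and Col17a1 fell (adjusted p = 0.00573 and 0.00669, limma), and the summed brightness of the 7 was 228578 to 273778 in the controls and 152254 to 221533 in the SOX11-induced samples. The share that fell was 1.78% of all genes and 3.52% of those above background. The median of the basal list was -0.41 (0.41 with median centring, 0.11 under the median of genes above background there). Of 7 suprabasal markers none passed the test, with a median of 0.43 and sums of 338213 to 398588 in the controls and 519455 to 524006 in the SOX11-induced samples. The sums did not overlap between groups for either list. In such bulk samples fewer cells of a type and less RNA per cell cannot be told apart.

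The 10 hair shaft markers, mostly hair keratins, stood apart between the pairs and did not pass the test. Their median was 2.28 in pair 1 but -0.41 in pair 2. Their summed brightness was 42273 in the control and 203625 in the SOX11-induced sample of pair 1, and 388440 and 308845 in pair 2. The control of pair 1 was thus the low sample. Of 8 fibroblast markers, 5 above background, Dcn and Thy1 fell (adjusted p = 0.0260 and 0.00179), with sums of 2203 to 2653 in the controls and 1458 to 1997 in the SOX11-induced samples. Of 8 muscle markers 2 were above background and Tnni2 fell (adjusted p = 0.0198), with sums of 676 to 780 and 546 to 573. For both lists the background is 1.78% of all genes falling, or 3.52% of those above background. Leukocyte, melanocyte and endothelial lists held no gene that passed the test, with medians of -0.26, 0.23 and 0.02, leukocyte sums of 11489 to 34486 in the controls and 9302 to 28282 in the SOX11-induced samples, melanocyte sums of 9192 to 10530 and 9298 to 14224, and endothelial sums of 785 to 815 and 734 to 751. The part of these groups in the log2 ratios of the chaperones was not tested.

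The calls rest on 2 pairs and on a variance shared across probes, since an exact sign-flip test of 2 pairs cannot give a p under 0.5. Dnaja1, Dnajb9 and Hsp90aa1 passed the test under 8 of 9 other settings each, and with the processed signals of the scanner software they did not (adjusted p = 0.244, 0.244 and 0.261). With those signals 0 of 34820 genes passed, and the mean log2 ratios of the 3 genes were 1.06, 0.79 and 0.65.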

How the data were processed

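Epidermal RNA of 2 littermate pairs was measured on 2-colour Agilent arrays. The intensity values the authors deposited are, per the file headers, spot and local background brightness from Agilent Feature Extraction 10.7.3.1 (scanner G2505C, probe coordinates of mm9), before normalization. The series table holds the authors' deposited log2 ratios, which correlated at 1 with a rebuild from the scanner files (column medians 0.0094 and 0.0040) and served as an alternative. The methods describe a colour swap that the labels do not show. The direction is Cy5 over Cy3 as labelled.

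With limma 3.58.1 (R 4.3.3), the mean spot signal and median background were corrected by normexp (offset 16) and loess, control spots had weight 0, and 194 and 186 flagged spots were dropped, none of them leaving a member without a value. An intercept was fitted to the pair differences of 55676 probes (34820 names) with eBayes (prior of 8.34 degrees of freedom and SD 0.223, against a median probe SD of 0.157) and Benjamini-Hochberg adjustment, and every adjusted p comes from this fit or, where said, from the same fit under another setting. Levels came from loess and Aquantile scaling. A probe was above background when at least 0.5 of its spots were well above background in 1 channel on both arrays. The array sets the precision, with 2 arrays.

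All 73 names matched RefSeq symbols (GRCm38.p6). Named genes were members past an adjusted p of 0.05, a set always named, the 4 highest and 4 lowest others above background, the 4 with the widest gap between pairs, and pathway genes past the threshold. The members and lists were chosen with earlier results of these data known. Scripts were tested on simulated data.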

Additional observations from a re-analysis of the deposited data

How the results depend on the processing

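The count of rising chaperone genes moved from 3 to 8 with a normexp offset of 50, to 5 with probes above background alone (fewer tests), to 9 with a prior variance that follows brightness, to 35 with median centring, and to 0 with the processed signals (10 higher and 8 lower at an unadjusted p under 0.05, limma). Calls over the whole array moved too: of genes above background 6.93% rose by the reported setting, 13.1% with the offset of 50 (members 13.8%), 8.05% with probes above background alone (members 8.62%), 12.5% with the brightness prior (members 15.5%) and 56.2% with median centring (members 60.3%), and with the processed signals 0 of 34820 genes passed. The count of falling chaperone genes moved from 0 to 1 (Hspb6) with the offset of 50. The brightness prior gave 2 (Hspb6 and Dnajc28, which was not above background). Median centring gave 6 (Dnajb7, Dnajc5g, Dnajc22, Dnajc28, Hspb3 and Hspbap1), none of them above background. Of all genes 1.78% fell by the reported setting, and 3.71%, 4.003% and 10.4% under these 3 settings in turn. The count of members past a log2 ratio of 1.5 moved from 0 to 1 with median centring. Of the calls among members 3 of 3 were higher by loess, and 35 of 41 with median centring. Of the calls over all genes 66.4% were higher by loess, and 72.1% with median centring. Pathway genes rising, of 70 measured, moved from 1 to 2 (offset 50), 43 (median centring), 0 (processed signals) and 2 (brightness prior). Of all genes 3.52% rose by the reported setting, and 6.26%, 26.8%, 0% and 6.38% under these settings in turn. Of genes above background, which 64 of the 70 are, 56.2% rose with median centring. The falling pathway gene was lost with the median spot signal, median centring, processed signals and probes above background alone. It was also lost, leaving 0, with the series table and the mean of all probes.

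Median centring moved the median of all genes above background from 0.03 to 0.52. The medians of all members and of the ER members became 0.46, and that of the heat-inducible genes 1.06. The last lies 0.53 above the 0.52, where by loess it lay 0.35 above the 0.03, but the shift was not the same for all genes. Median centring reversed Hspa9 to 0.20, Hsp90b1 to 0.34, Hspd1 to 0.31, Hspe1 to 0.38, Dnajc3 to 0.11, Dnajc21 to 0.15 and Hspb11 to 0.093. The processed signals took the median of members from 0.03 to -0.070. Leaving out 1 pair gave medians from -0.056 to -0.0095 for all members, from 0.38 to 0.48 for the heat-inducible genes and from -0.10 to 0.07 for the ER members, with no test possible on 1 pair. The cause of these differences between settings was not tested. Every fit is paired, being made on the difference between littermates within an array, and no unpaired fit was run. Dim probes limit the rest: 15 of 73 members were not above background.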
